A study of Mus musculus with 6 samples.

Results

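The chemokine system of mouse hepatocytes was examined 4 days after SOX4, a high mobility group transcription factor, was switched on in the adult liver. Chemokines are small secreted proteins named for the spacing of their first cysteines (CXCL, CCL, XCL and CX3CL), and they guide leukocytes by binding G protein-coupled receptors (CXCR, CCR, XCR1 and CX3CR1) on the migrating cell. Atypical receptors (ACKR) bind chemokines without G protein signalling and remove or relocate them. In the liver, hepatocytes, Kupffer cells (the resident macrophages), endothelial cells and stellate cells all release chemokines, and glycosaminoglycans on cell surfaces hold the secreted proteins in place. Members were taken by symbol: every gene of the raw count table whose name is that of a CXC, CC, CX3C or XC chemokine, of a conventional receptor for them, or of an atypical receptor (Pf4 and Ppbp, which carry other names, were kept in a separate list). This gave 61 genes of 53599 in the table, made up of 39 ligands, 18 conventional receptors and 4 atypical receptors.

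RNA was sequenced in bulk from 3 EV and 3 Sox4 libraries. EV mice received AAV8-TBG-Cre, the empty vector, and Sox4 mice received AAV8-TBG-HA-Sox4-P2A-Cre, which carries an HA-tagged mouse Sox4 ahead of Cre. The study's methods describe different plasmid backbones for these vectors, with a guide RNA cassette in that of the empty vector. Per the study's methods the animals were males that carried a Cre-dependent Cas9-EGFP allele at Rosa26 on C57BL/6J. Hepatocytes of both groups were thus exposed to the virus, Cre, Cas9 and EGFP. The TBG promoter limits expression from the vector to hepatocytes. The mice were injected at an age of several weeks, given by the study as a range and not for each sample. Hepatocytes were enriched on Percoll after liberase digestion and were not sorted. The study describes the 3 libraries of a group as 3 animals; the labels do not tie libraries to animals.

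Total counts ran from 15090629 to 16249382 in EV and from 16679195 to 16964860 in Sox4. Sox4 itself had 2, 0 and 3 counts in the EV libraries and 21697, 15097 and 11816 in the Sox4 libraries, the vector's own transcript included. Hepatocyte markers such as Alb were abundant in all 6 libraries, and their summed CPM lay between 134318 and 163493 for EV and between 93881 and 105149 for Sox4. CPM are counts in 1000000 of a library size that was rescaled by the trimmed mean of M values (TMM); this rescaled size was larger in Sox4 (factors of 1.18 in each library against 0.840 to 0.861 in EV). The choice matters for small changes: the median log2 fold change of all 12691 genes tested was 0.04 under TMM and rose to 0.51 when raw library sizes served instead. Of the 10 hepatocyte markers, 8 were lower in Sox4 at an edgeR adjusted p under 0.05 and 0 higher, and 3 were lower with raw library sizes. Over all tested genes 26.0% were lower, and 12.8% with raw library sizes.

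Promoters of 4 members are shown because they are neighbours on a chromosome that behaved differently in the counts described further on. Each is the 250 bases before the annotated start, written 5′ to 3′ on the gene's own strand, from RefSeq on build GRCm38.p6, which is not the GRCm39 build on which the reads were counted. Capitals mark matches, on either strand, to any of 5 short motifs: the core of interferon regulatory factor sites (AANNGAAA), the gamma-activated site (TTCNNNGAA), a core of NF-kB sites (GGANNTTCC), a SOX core (AACAANG) and the TATA box (TATAAA).
Cxcl9: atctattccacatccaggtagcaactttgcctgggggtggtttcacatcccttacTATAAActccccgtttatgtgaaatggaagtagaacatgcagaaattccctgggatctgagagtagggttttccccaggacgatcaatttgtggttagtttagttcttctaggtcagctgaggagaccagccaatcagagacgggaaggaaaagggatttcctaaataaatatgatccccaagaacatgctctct
Cxcl10: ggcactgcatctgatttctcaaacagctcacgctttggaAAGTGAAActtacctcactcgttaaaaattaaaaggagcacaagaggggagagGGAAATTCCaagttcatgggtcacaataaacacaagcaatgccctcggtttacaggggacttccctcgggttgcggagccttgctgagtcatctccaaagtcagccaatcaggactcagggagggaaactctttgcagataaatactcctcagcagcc
Ccl9: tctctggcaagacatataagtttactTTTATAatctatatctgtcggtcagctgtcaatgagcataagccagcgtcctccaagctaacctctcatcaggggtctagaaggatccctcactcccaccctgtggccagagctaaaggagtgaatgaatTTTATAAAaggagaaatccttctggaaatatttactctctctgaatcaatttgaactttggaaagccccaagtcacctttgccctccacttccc
Ccl6: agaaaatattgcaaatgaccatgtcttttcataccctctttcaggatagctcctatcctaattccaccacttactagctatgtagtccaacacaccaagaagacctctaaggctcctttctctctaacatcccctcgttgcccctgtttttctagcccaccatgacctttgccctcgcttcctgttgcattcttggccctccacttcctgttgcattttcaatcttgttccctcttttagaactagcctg
These lie at chr5:92328080-92328329, chr5:92348890-92349139, chr11:83578637-83578886 and chr11:83593088-83593337, all 4 on the minus strand. Over windows that ran on for a further 50 bases, the Cxcl9 promoter held only a TATA box match, 195 bases before the start. The Cxcl10 promoter held an interferon regulatory factor core at 211 bases before the start and an NF-kB core at 158 bases before it. The Ccl9 promoter held 3 TATA box matches, of which the pair at 94 and 92 bases before the start overlap on opposite strands and the third lies 224 bases before it on the opposite strand. No match was found in the Ccl6 window. Of 32851 RefSeq promoter windows of 300 bases, 23.9% held the interferon regulatory factor core, 8.30% the gamma-activated site, 4.26% the NF-kB core, 14.1% the SOX core and 13.6% the TATA box, so that none of these letters is rare, and a match is not a measured binding site. The tables held no promoter for Cxcl11 or Cxcl16.

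The comparison of Sox4 with EV asked which chemokine genes change early after Sox4 is expressed. Of the 61 members, 45 had at least 1 count, and 13 passed the expression filter (about 10 counts in at least 3 libraries): 11 ligands, the atypical receptors Ackr2 and Ackr4, and no conventional receptor. Of these 13, 5 were lower in Sox4 at an adjusted p under 0.05 (Cxcl9, Cxcl11, Cxcl12, Ccl9 and Ackr2), 2 were higher (Ccl6 and Cxcl14), and 6 did not pass the threshold (Cxcl1, Cxcl10, Cxcl16, Ccl25, Ccl27a and Ackr4). The share called, 53.8%, was close to the 55.1% of all tested genes that passed the same threshold, and is therefore not a result about the members. By direction, 38.5% of the tested members were lower against 26.0% of all tested genes, and 15.4% were higher against 29.0%. With library size alone, the split was 3 lower and 3 higher among the members, and 12.8% lower and 51.0% higher among all tested genes. The median log2 fold change was -0.50 over the 13 members and 0.04 over all tested genes. In 5 of the 13 members (38.5%) the 3 libraries of one group all lay above the 3 of the other, which held for 63.0% of all tested genes. Since the RNA was taken from a mixture, fewer cells of a type and less RNA per cell cannot be told apart in any of these values.

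**Figure D1:**
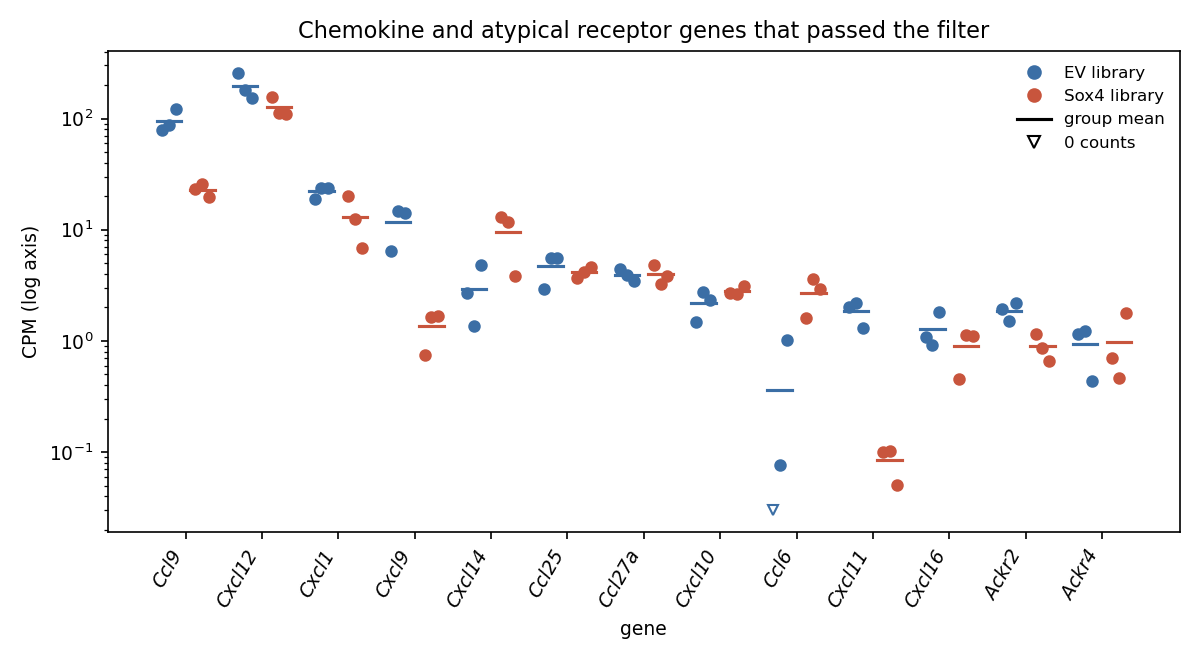
CPM of the 13 members that passed the filter, on a log axis, in 3 EV and 3 Sox4 libraries; each point is a library, bars are group means, and an open triangle marks 0 counts. The EV and Sox4 points are fully apart for Ccl9, Cxcl9, Cxcl11, Ccl6 and Ackr2.

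The CXCR3 ligands Cxcl9, Cxcl10 and Cxcl11 attract activated T cells and natural killer cells and are classical interferon gamma target genes. They lie side by side on chromosome 5, with 18.6 kb between Cxcl9 and Cxcl10 and 10.7 kb between Cxcl10 and Cxcl11, and they did not move together. Cxcl9 stood at 6.40, 14.6 and 14.0 CPM in EV replicates 1 to 3 and at 0.752, 1.63 and 1.67 CPM in Sox4 replicates 1 to 3. Every Sox4 library was below every EV library, and the log2 fold change was -3.10 (SE 0.51, n = 3 a group, edgeR adjusted p = 0.000173), a level 8.59-fold lower in Sox4. Here and below the SE is that of the difference between the group means of log2 CPM. That difference was taken with a prior count of 2 and can depart from the fitted log2 fold change where counts are low.

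Cxcl11 had 26, 29 and 18 counts in EV, which is 2.00, 2.20 and 1.31 CPM, and 2, 2 and 1 counts in Sox4. All 3 Sox4 libraries were thus at or under the floor of 3 counts. On summed counts the EV level was 21.7 times the Sox4 level, with an exact 95% interval of 8.88 to 68.7 that covers counting error only. The fitted log2 fold change was -4.33 (edgeR adjusted p = 0.000122). The difference in mean log2 CPM, with a prior count of 2, was smaller at -3.23 (SE 0.25), and this SE does not measure the spread of the fitted value. RefSeq lists Cxcl11 as a transcribed pseudogene in the reference strain, so that its counts need not stand for a working chemokine. In the GENCODE M21 annotation, 41.7% of its exon bases overlap Gm2673 on the opposite strand, and the strand setting of the counting is not given in the sources used here.

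Cxcl10, between these 2 genes, had 1.46, 2.73 and 2.32 CPM in EV and 2.71, 2.66 and 3.14 CPM in Sox4. The groups overlapped, and the log2 fold change of 0.38 (SE 0.26) did not pass the threshold (edgeR adjusted p = 0.327). With library size alone, Cxcl10 was past it in the upward direction, at a log2 fold change of 0.85 (adjusted p = 0.0357), while Cxcl9 and Cxcl11 were lower under every scaling tried.

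A ratio of counts within a library does not depend on any scaling. Cxcl9 had 4.37, 5.33 and 6.03 counts for each Cxcl10 count in the EV libraries and 0.278, 0.615 and 0.532 in the Sox4 libraries. The mean ratio was 5.24 ± 0.835 in EV and 0.475 ± 0.176 in Sox4 (SD, n = 3), and the order of the pair thus turned from more Cxcl9 counts to more Cxcl10 counts in every library. For Cxcl11 the ratio to Cxcl10 was 1.37, 0.806 and 0.563 in EV and 0.0370, 0.0385 and 0.0161 in Sox4. Neither ratio overlapped between the groups, and each gave p = 0.1 in a two-sided exact permutation test, the smallest value that 3 against 3 libraries allow. These ratios were chosen after the values of the genes had been seen.

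The interferon gamma axis, listed as 18 genes for the receptor chains, kinases, STATs and well-known targets, was measured beside these ligands. Of its 14 tested genes, 4 were higher, 7 lower and 3 not past the threshold, with a median log2 fold change of -0.47. Over all tested genes 29.0% were higher and 26.0% lower, with a median of 0.04. Irf1, a transcription factor gene that interferon gamma induces, was at 18.4, 13.3 and 21.6 CPM in EV and at 9.22, 11.2 and 7.75 CPM in Sox4. The groups did not overlap, and Irf1 fell by 0.92 on the log2 scale (SE 0.25, edgeR adjusted p = 0.00434), and the GTPase gene Gbp7 fell by 1.29 (SE 0.40, edgeR adjusted p = 0.00524). Stat2, Irf9, Gbp2 and Gbp3 were lower as well.

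The receptor chain Ifngr1 rose by 1.03 on the log2 scale (SE 0.17, edgeR adjusted p = 0.00053), and Socs3, a feedback inhibitor of JAK kinases that also answers to other cytokines, rose by 2.55 (SE 0.43, edgeR adjusted p = 0.000194). Ifngr2 and Jak2 were higher too. Ifng, the cytokine itself, had 0 counts in all 6 libraries, which allows up to 0.231 CPM (EV) or 0.153 CPM (Sox4) at the floor of 3 counts per library. With library size alone the list had 5 genes higher and 2 lower and a median of 0.01, where 51.0% of all tested genes were higher and 12.8% lower. Irf1 then did not fall past the threshold (log2 fold change -0.45). The direction of the list as a whole thus rests on the scaling. Gbp7 (-0.82), Socs3 (3.02) and Ifngr1 (1.5) kept both direction and threshold.

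**Figure D2:**
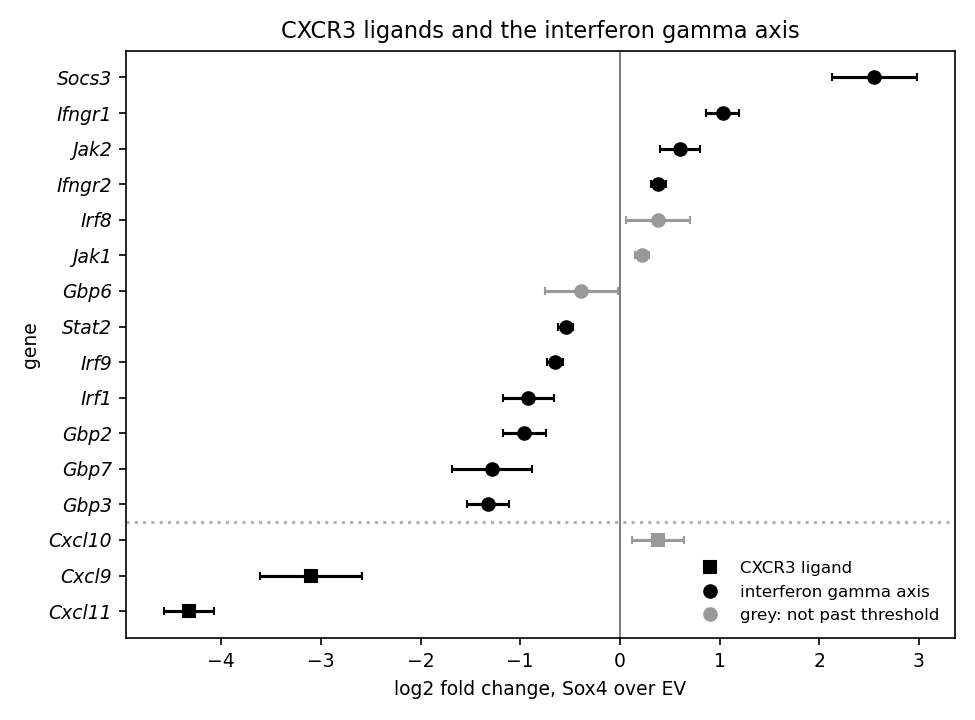
Log2 fold change of Sox4 over EV for the 3 CXCR3 ligands (squares) and 13 of the 14 tested genes of the interferon gamma axis (circles). Bars are 1 SE of the difference in mean log2 CPM, and grey marks genes not past the threshold. Cxcl9 and Cxcl11 lie far to the left of Cxcl10 and of the 13 genes of the axis shown, which span -1.32 to 2.55.

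Ccl9 and Ccl6 are closely related CC chemokines of rodents that attract myeloid cells through Ccr1, and they are neighbours on chromosome 11 with 9.25 kb between them. Their transcripts moved in opposite directions. Ccl9 was at 79.5, 86.7 and 121 CPM in EV and at 23.2, 26.0 and 19.8 CPM in Sox4. The groups were far apart, and the log2 fold change was -2.06 (SE 0.22, edgeR adjusted p = 1.41e-05), a level 4.17-fold lower. Ccl6 had 0, 1 and 14 counts in EV (0, 0.0759 and 1.02 CPM) and 32, 70 and 58 counts in Sox4 (1.60, 3.58 and 2.94 CPM). All Sox4 libraries were above all EV libraries, but the EV libraries differed widely among themselves, and the log2 fold change of 2.84 had an SE of 1.04 (edgeR adjusted p = 0.0193). Without EV replicate 2 the adjusted p was 0.064, without Sox4 replicate 2 it was 0.0611, and without EV replicate 3, which holds 14 of the 15 EV counts, the log2 fold change was 5.88.

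Some markers of Kupffer cells were higher in Sox4, as Ccl6 was. Of 11 Kupffer markers, 10 were tested, 4 were higher (Marco, Cd5l, C1qb and C1qc), where 29.0% of all tested genes were, none was lower, and the defining marker Clec4f did not pass the threshold (log2 fold change 0.86, edgeR adjusted p = 0.113). The summed Kupffer level was 13.6, 26.9 and 30.5 CPM in EV replicates 1 to 3 and 29.8, 59.0 and 70.4 CPM in Sox4 replicates 1 to 3. Of 9 monocyte markers, 3 were tested, Lyz2 and Cd68 were higher and Plac8 lower, where 26.0% of all tested genes were lower. The summed CPM of the monocyte markers lay between 4.55 and 7.41 for EV and between 9.32 and 16.1 for Sox4. The Kupffer sums of the groups overlapped, and the monocyte sums did not. The part of these cells in the changes of Ccl6 and Ccl9 was not tested.

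The homeostatic CXC chemokines Cxcl12 and Cxcl14 differed in direction. Cxcl12, the ligand of CXCR4 and of the atypical receptor ACKR3 and a retention signal for blood cell progenitors, was at 259, 182 and 153 CPM in EV and at 156, 113 and 109 CPM in Sox4. Sox4 replicate 1 reached into the EV range, and the fall of 0.65 on the log2 scale was small (SE 0.28, edgeR adjusted p = 0.0278). It did not pass the threshold with library size alone (log2 fold change -0.18), nor when EV replicate 1 (adjusted p = 0.0809) or Sox4 replicate 2 (0.0954) or 3 (0.0841) was left out.

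Cxcl14, an epithelial chemokine with no agreed receptor, was at 2.70, 1.37 and 4.79 CPM in EV and at 13.1, 11.7 and 3.80 CPM in Sox4. Sox4 replicate 3 lay within the EV range while the other 2 Sox4 libraries were above it, and the log2 fold change was 1.69 (SE 0.75, edgeR adjusted p = 0.0347). The call was lost when EV library 1 (adjusted p = 0.124) or 2 (0.0893) or Sox4 library 1 (0.118) or 2 (0.0851) was left out, with limma-voom (0.0616) and with the replicate number as a block (0.187).

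Cxcl1, the neutrophil attractant that acts through CXCR2 and a classical NF-kB target gene, was at 18.7, 23.7 and 23.8 CPM in EV and at 20.2, 12.4 and 6.79 CPM in Sox4. Sox4 replicate 1 sat among the EV libraries and the other 2 below them. The log2 fold change of -0.75 (SE 0.46) did not pass the threshold (edgeR adjusted p = 0.102), but it did with DESeq2 (0.0378), with limma-voom (0.0452), with no filter (0.00237) and without Sox4 replicate 1 (log2 fold change -1.21, adjusted p = 0.00351). The fit with no filter gave smaller p-values than the main fit for other well-counted members too, such as Ccl9. Cxcl2, the relative of Cxcl1 on the same receptor, stayed below the filter at 1, 5 and 8 counts in EV and 1, 4 and 3 in Sox4.

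The NF-kB list of 31 genes (receptors, kinases, subunits, inhibitors and targets) had 8 of 25 tested genes higher, 7 lower, 10 not past the threshold and a median log2 fold change of -0.07. These counts were close to the shares of all tested genes, 29.0% higher and 26.0% lower, and are therefore not a result about the list. With library size alone the split was 10 higher and 3 lower, against 51.0% and 12.8% of all tested genes. The adhesion molecule Vcam1 rose from 1.22 ± 0.567 to 11.2 ± 7.96 CPM (SD, n = 3; edgeR adjusted p = 0.00268). Birc3, an inhibitor of apoptosis, fell by 1.79 on the log2 scale (SE 0.17, edgeR adjusted p = 3.30e-05), Myd88, the adaptor of Toll-like and interleukin 1 receptors, by 1.15 (SE 0.19, edgeR adjusted p = 0.00106), and Chuk, which encodes the kinase IKK alpha, by 0.97 (SE 0.15, edgeR adjusted p = 0.000238). Of the cytokines that feed this pathway, Tnf had 1 count in all 6 libraries together and Il6 had 0.

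The remaining tested ligands were low and did not pass the threshold. Ccl25, the ligand of CCR9, lay between 2.93 and 5.62 CPM (EV) and between 3.71 and 4.66 CPM (Sox4) (log2 fold change -0.18, SE 0.32, edgeR adjusted p = 0.622), and its sign turned with library size alone (0.29). Ccl27a, the ligand of CCR10, lay between 3.49 and 4.39 CPM (EV) and between 3.27 and 4.81 CPM (Sox4) (log2 fold change 0.02, SE 0.18, edgeR adjusted p = 0.961). It shares 45.0% of its 50-base sequences with near-identical copies such as Ccl27b, so that its counts depend on how reads with several matches were treated, which is not given in the sources used here. Cxcl16, the membrane-bound ligand of CXCR6, lay between 0.911 and 1.82 CPM (EV) and between 0.451 and 1.12 CPM (Sox4) (log2 fold change -0.50, SE 0.46, edgeR adjusted p = 0.397). Of its exon bases, 18.3% overlap Zmynd15 on the opposite strand, and the strand setting of the counting is not given either.

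The atypical receptors were also low. Ackr2, a scavenger of inflammatory CC chemokines, had 1.93, 1.52 and 2.18 CPM in EV and 1.15, 0.868 and 0.659 CPM in Sox4. The groups did not overlap, and the log2 fold change was -1.06 (SE 0.25, edgeR adjusted p = 0.0355). This call was a narrow one: it was kept in 1 of the 6 fits that left out a library and was lost with library size alone (log2 fold change -0.60, adjusted p = 0.19). Leaving out EV replicate 1, 2 or 3 gave adjusted p-values of 0.0811, 0.0506 and 0.112, and leaving out Sox4 replicate 2 or 3 gave 0.0967 and 0.111. Ackr4, a scavenger of CCL19, CCL21 and CCL25, lay between 0.436 and 1.21 CPM (EV) and between 0.460 and 1.77 CPM (Sox4) (log2 fold change 0.07, SE 0.65, edgeR adjusted p = 0.931), and 8.90% of its exon bases overlap Acad11 on the opposite strand. Ackr1 and Ackr3 had at most 3 counts in any library.

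**Figure D3:**
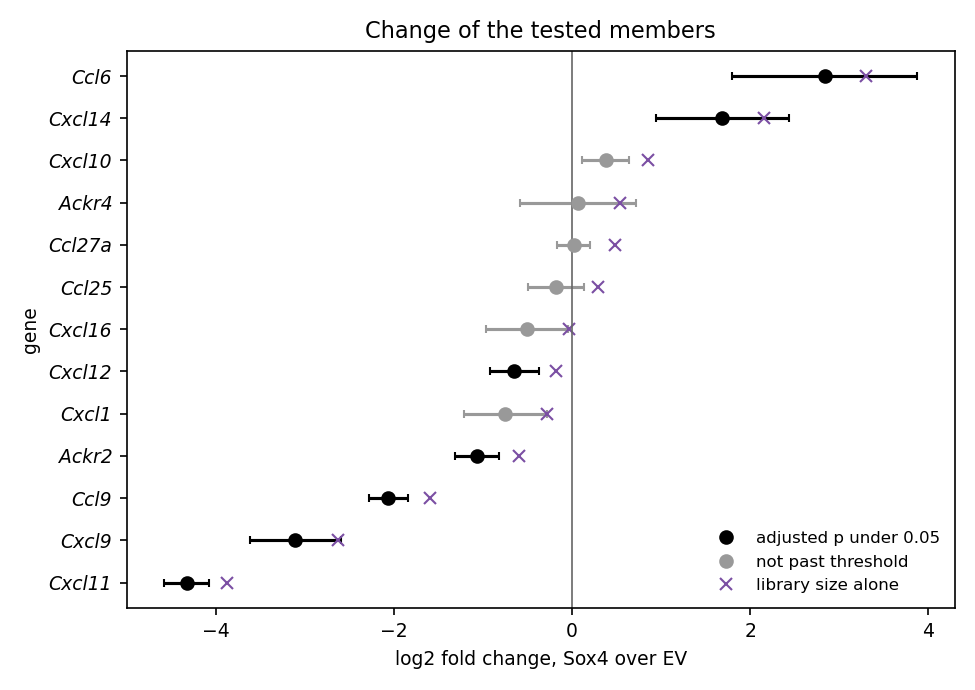
Log2 fold change of Sox4 over EV for the 13 tested members with TMM (circles, black where the adjusted p is under 0.05) and with library size alone (purple crosses). Bars are 1 SE of the difference in mean log2 CPM. The crosses lie to the right of the circles throughout, and Ccl25 changes sign.

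Compared per length of exon, as CPM per kilobase of the merged exons of GENCODE M21, Ccl9 led the members in EV at 31.5 ± 7.36 (SD, n = 3), followed by Cxcl12 at 24.2 ± 6.70 and Cxcl1 at 11.8 ± 1.55. The libraries of Ccl9 (26.1 to 39.9) and Cxcl12 (18.7 to 31.6) overlapped, and those of Cxcl1 (9.99 to 12.7) lay below both. In Sox4, Cxcl12 led at 15.4 ± 3.20, with all 3 libraries above those of Ccl9 at 7.54 ± 1.03. Cxcl1 at 7.0 ± 3.61 and Cxcl14 at 5.23 ± 2.76 overlapped with Ccl9 there. In both groups the other tested members had a mean under 4 in these units, Cxcl9 in EV included at 3.87 ± 1.52.

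Conventional receptors were nearly absent from these libraries. None of the 18 passed the filter, 2 (Ccr4 and Ccr8) had 0 counts throughout, and the highest count of any of them in a library was 23. Of the 48 members below the filter, 32 had a count, and 25 of these 32 (78.1%) had a higher mean CPM in Sox4 and 7 in EV, where 60.5% of all 11345 detected genes below the filter were higher in Sox4. In a fit with no filter, whose calls for these genes were added after seeing the data, 4 of these 32 (12.5%) passed the threshold, against 5.61% of all 11345 detected genes below the filter and 31.8% of all 24036 detected genes. These were Ccl2, Ccr2, Cxcl17 and Xcr1, of which 3 were higher and Xcr1 lower, where 4.01% of the genes below the filter were called higher. The fit with no filter gave much smaller p-values than the main fit for well-counted members at nearly the same fold change. For Ccl9 the edgeR adjusted p went from 1.41e-05 to 2.80e-44, at log2 fold changes of -2.06 and -2.02. The p-values with no filter therefore cannot be read as those of the main fit.

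Ccl2, the main monocyte attractant, had 0, 1 and 0 counts in EV and 11, 25 and 6 in Sox4, a ratio of 28.3 on summed counts with an exact 95% interval of 4.81 to 1144 (counting error only; edgeR adjusted p with no filter = 0.000329). Its receptor Ccr2, which marks inflammatory monocytes, had 0, 2 and 2 counts in EV and 11, 23 and 5 in Sox4, a ratio of 6.57 (2.37 to 25.3; edgeR adjusted p with no filter = 0.0125). The summed monocyte markers were 9.32, 16.1 and 13.5 CPM in Sox4 replicates 1 to 3. Replicate 2 was thus highest in these markers and in both genes. Replicate 3 had more marker CPM than replicate 1 but fewer counts of both genes. Ly6c2, which defines inflammatory monocytes, had 1, 2 and 1 counts in EV and 7, 7 and 4 in Sox4. The part of monocytes or macrophages in these counts was not tested.

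Cxcl17, a chemokine of mucosal epithelia, had 1, 0 and 0 counts in EV and 6, 10 and 6 in Sox4 (edgeR adjusted p with no filter = 0.0245). Xcr1, the XCL1 receptor of cross-presenting dendritic cells, had 1, 7 and 1 counts in EV and 0 in each Sox4 library (edgeR adjusted p with no filter = 0.0285). Cxcr4, the receptor of Cxcl12, had 4, 1 and 1 counts in EV and 10, 15 and 8 in Sox4, groups that do not overlap, and did not pass the threshold (edgeR adjusted p with no filter = 0.094).

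Other inflammatory ligands were close to the floor. Ccl7, a further CCR2 ligand 8.26 kb from Ccl2, had 0 counts in EV and 1, 2 and 9 in Sox4. Ccl5, an attractant made by T cells, had 1, 0 and 0 counts in EV and 7, 1 and 4 in Sox4. Ccl3 and Ccl4, inflammatory CC chemokines, had at most 4 counts in any library, and Cxcr3, the receptor of Cxcl9, Cxcl10 and Cxcl11, had 1 count in all. Of the other members named by the total of 10 counts, Ccl24, Ccl28, Cx3cr1, Ccr9 and Cxcr6 had between 0 and 9 counts a library, with groups that overlapped in CPM; in raw counts only Ccl28 was apart (4, 1 and 3 in EV and 5, 6 and 9 in Sox4). The remaining 19 members with counts had fewer than 10 in all, and 16 had none, among them the lymphoid tissue chemokines Ccl19 and Ccl21a and the epithelial CCR6 ligand Ccl20. At this depth such genes are not detectable rather than absent. Ccl19 shares 52.0% and Ccl21a 71.6% of its 50-base sequences with other genes. Their 0 counts thus also depend on how reads with several matches were treated, which is not given in the sources used here.

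**Figure D4:**
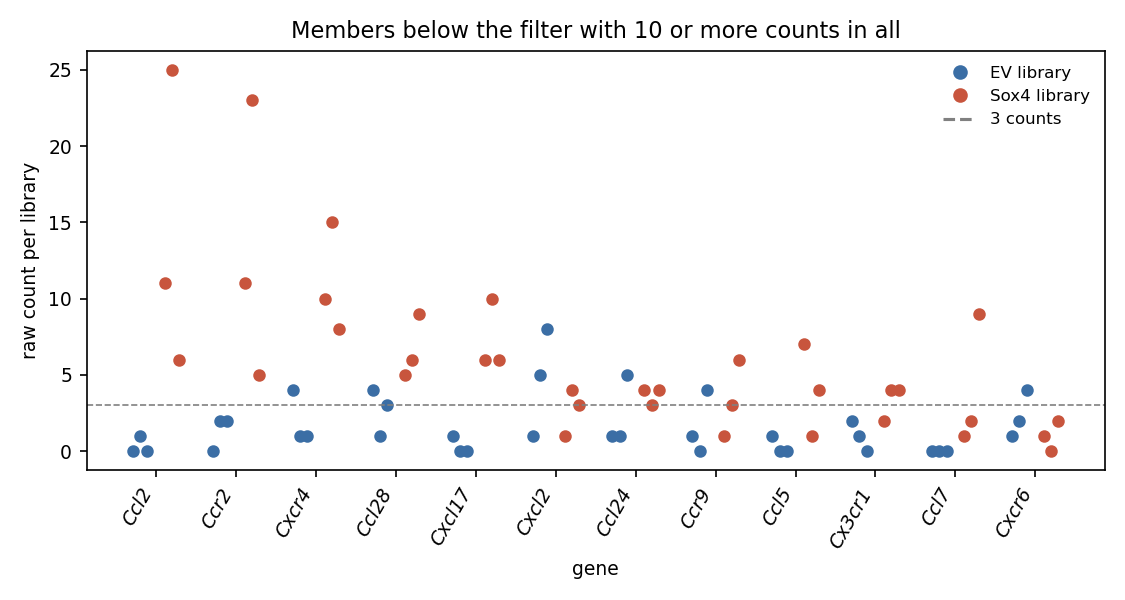
Raw counts per library of 12 of the 13 members below the filter with 10 or more counts in all, in EV and Sox4; the dashed line marks 3 counts. Ccl2, Ccr2, Cxcl17, Cxcr4, Ccl7 and Ccl28 have every Sox4 count above every EV count, and Ccl28 overlaps once counts are scaled to CPM.

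Lymphocytes and neutrophils, the cells on which most of these receptors are found, left little RNA in the libraries. None of 8 neutrophil, 11 T and natural killer cell or 6 B cell markers passed the filter, and their summed levels were at most 1.84, 1.67 and 1.43 CPM in any library. Camp, Gzmb and Ms4a1 were at 0 counts in all 6. Of the other cells that release chemokines, summed endothelial markers lay between 17.7 and 25.8 CPM (EV) and between 14.1 and 34.0 CPM (Sox4), with 2 of 10 higher and 1 lower, and stellate cell markers between 8.78 and 46.3 CPM (EV) and between 83.8 and 141 CPM (Sox4), with 2 of 5 tested higher (Col3a1 and Reln). Cholangiocyte markers lay between 27.7 and 43.8 CPM (EV) and between 73.1 and 85.5 CPM (Sox4), with 2 of 4 tested higher (Spp1 and Epcam). Over all tested genes 29.0% were higher and 26.0% lower. The part of these cells in the chemokine values was not tested. Platelet markers summed to at most 1.77 CPM.

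**Figure D5:**
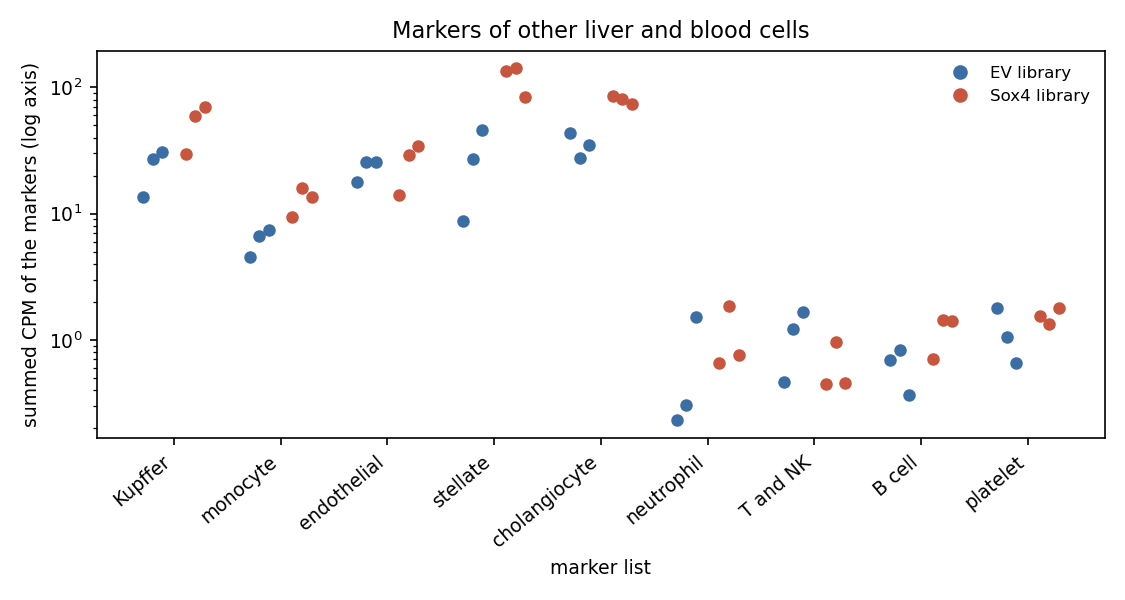
Summed CPM of marker genes of 9 other cell types, on a log axis, in each EV and Sox4 library. The Sox4 libraries lie above all EV libraries for monocyte, stellate and cholangiocyte markers and overlap them for the others; neutrophil, lymphocyte and platelet sums stay below 2 CPM.

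Genes that act around the chemokines were followed in 3 further lists. Over all tested genes 29.0% were higher and 26.0% lower, and 51.0% and 12.8% with library size alone. Of 12 related attractants, processing enzymes and decoy receptors, 8 were tested, with 2 higher, 2 lower, 4 not past the threshold and a median log2 fold change of 0.14. Dpp4, the cell surface peptidase that trims and inactivates CXCR3 ligands and CXCL12, averaged 183 ± 29.3 CPM (SD) in EV and 49.5 ± 3.67 CPM in Sox4 (log2 fold change -1.88, SE 0.15, edgeR adjusted p = 6.15e-06). Lect2, a hepatocyte-derived leukocyte attractant, rose by 0.89 on the log2 scale (SE 0.19, edgeR adjusted p = 0.000993), and Rarres2, which encodes the attractant chemerin, fell by 0.78 (SE 0.23, edgeR adjusted p = 0.00544). With library size alone Rarres2 did not pass the threshold (-0.31), and the split was 2 higher and 1 lower.

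The signalling list below the receptors (G protein subunits, arrestins, kinases and RGS proteins) had 22 of 29 genes tested, with 6 higher, 4 lower, 12 not past the threshold and a median of 0.16. Over all tested genes 29.0% were higher and 26.0% lower. With library size alone the list had 13 higher and 2 lower, against 51.0% and 12.8% of all tested genes. Gnb1, a G protein beta subunit, rose from 63.9 ± 5.49 to 204 ± 13.2 CPM (edgeR adjusted p = 4.28e-06), and Gnai2, the alpha subunit through which most chemokine receptors signal, rose by 0.55 on the log2 scale (SE 0.10, edgeR adjusted p = 0.00268). Rgs16, a brake on G protein signalling, was at 11.8, 83.0 and 131 CPM in EV and at 1.90, 4.50 and 6.59 CPM in Sox4 (log2 fold change -4.12, SE 1.18, edgeR adjusted p = 0.0235). The phospholipase gene Plcb3 fell by 0.95 (SE 0.15, edgeR adjusted p = 0.000643).

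Of 18 genes for heparan sulfate synthesis and its core proteins, which hold chemokines on cell surfaces, 16 were tested, with 5 higher, 7 lower, 4 not past the threshold and a median of -0.18. Over all tested genes 29.0% were higher and 26.0% lower. With library size alone 7 genes of the list were higher and 0 lower, against 51.0% and 12.8% of all tested genes. The core protein gene Gpc2 had 0 counts in every EV library and 219, 309 and 266 in Sox4, at least 59.5-fold higher when EV is set to 3 counts per library. Gpc1, another glypican, rose by 1.09 on the log2 scale (SE 0.16, edgeR adjusted p = 0.000548). Sdc4, a syndecan of hepatocytes, fell by 0.79 (SE 0.23, edgeR adjusted p = 0.00545), and the sulfotransferase gene Ndst2 fell by 0.77 (SE 0.07, edgeR adjusted p = 0.000587), and neither passed the threshold with library size alone.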

How the data were processed

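RNA was sequenced from hepatocytes of 3 EV and 3 Sox4 liver samples. Per the submitters' processing notes, the authors used STAR 2.7.10b, featureCounts 2.0.1 and DESeq2 with build GRCm39; the annotation release, strand and multiple-match settings are not given in the sources used here. The deposited raw counts per gene were used; the authors' normalized table was not.

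Libraries ran from 15090629 to 16964860 counts. Genes passing filterByExpr (minimum count 10, minimum total 15) were tested with edgeR 4.0.16 (TMM, robust quasi-likelihood F test, Benjamini-Hochberg over 12691 genes, threshold 0.05) in R 4.3.3. Group means and CPM used rescaled library sizes, with a prior count of 2 for log2 values. Counting intervals are exact and cover counting error only. The procedure was tested on simulated data with few changed genes, as many up as down, which cannot test the choice of scaling. Alternatives were RLE scaling, library size alone, other filters, DESeq2 1.42.0, limma-voom 3.58.1, a replicate block, leaving out each library and a prior count of 0.5. No 2 libraries of a group agreed within sampling noise.

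Members and gene lists were chosen with earlier results of these data known. Every member past the filter is named, as are members below it with 10 or more counts in all except 1 that is not reported here, and of each pathway list at most 4 called genes with the largest change among those with a mean count of 100 or more. Other genes named were chosen after their values were seen. Exon lengths and overlaps came from GENCODE M21; promoters and neighbours came from RefSeq GRCm38.p6, where 61 of 61 members matched.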

Additional observations from a re-analysis of the deposited data

How the results depend on the processing

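Cxcl9 and Ccl9 stayed lower and past the threshold in all 13 alternatives, at log2 fold changes of -3.41 to -2.63 and -2.20 to -1.59, and Cxcl11 in all 12 that tested it (-4.54 to -3.87). The number of members higher was 2 and became 1 when a mean count of 50 was required, with limma-voom and with the replicate block, and 3 with library size alone; it was 0 to 2 without one library. The number lower was 5 and became 3 with library size alone and also with the stricter filter (3 to 6 without one library). The number changed was 7 and became 4 with the stricter filter, where 6 of the 13 members could not be tested for want of counts (3 without Sox4 replicate 2, 4 without EV replicate 1 or 2, and up to 7 without another library). The interferon gamma axis had 11 changed genes and 7 with library size alone (8 to 10 without one library), the heparan sulfate list 12 and 7 (10 to 12), and the receptor signalling list 10, with 6 without EV replicate 2 and up to 10 without another. All tested genes changed numbered 6990, and 5937 to 8092 over the alternatives.

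Signs turned for Ccl25 with library size alone (0.29), for Ackr4 with limma-voom (-0.040) and the replicate block (-0.048), and, when 1 library was left out, for Ackr4 in 2 fits (range -0.67 to 0.41) and for Ccl27a in 3 fits (range -0.15 to 0.14); none of these passed the threshold in any fit. With a prior count of 0.5 the level difference of Cxcl11 was -4.03 in place of -3.23.

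Whether the shared replicate numbers pair the libraries is not known. The deviations of same-numbered libraries correlated at 0.27, -0.09 and 0.13, and those of differently numbered libraries were not compared. With the replicate block 7362 genes changed, 6853 of them shared with the fit without it. Among the members, Ackr2 (edgeR adjusted p = 0.0515) and Cxcl14 (0.187) were lost, while Cxcl12 went from 0.0278 to 0.0011. No conventional receptor exceeded 23 counts in a library, which limits what can be seen.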
